A study of Rattus norvegicus with 8 samples.

Results

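Cells with the transcript pair of plasmacytoid dendritic cells, Siglech and Irf8, were picked out of single-cell RNA-seq data of contused rat spinal cord. The cells were chosen by measured values: at most 10% of UMIs (unique molecular identifiers, each standing for 1 captured transcript) from mitochondrial genes, at least 1000 UMIs, at least 3 UMIs of Siglech, at least 3 of Irf8, at most 5 of the complement genes C1qa, C1qb and C1qc together, and at most 1 of Csf1r, the receptor for macrophage colony-stimulating factor. This left 404 cells of the 57296 that met the mitochondrial and total limits (0.705%), out of 68658 deposited. They are called Siglech Irf8 cells here. The study compared 4 groups of female Wistar rats, aged 8 weeks, with 2 libraries in each: sham, with laminectomy alone, and mild, moderate and severe contusion, in which a 10 g weight fell onto the thoracic cord from 12.5, 25 and 50 mm. A stretch of 10 mm of cord around the lesion was taken on day 7, digested to single cells, with no sort named, and run on the 10x 3′ kit. The libraries held between 31482153 UMIs (sham 2) and 131045446 (severe 2). The study names as many sequenced cords as there are libraries, and p-values measure the spread between libraries.

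Plasmacytoid dendritic cells are round, secretory-looking cells of the dendritic lineage that read viral and self nucleic acids through endosomal Toll-like receptors and can release large amounts of type I interferon. They are made in bone marrow under the transcription factor Tcf4, which needs the absence of its inhibitor Id2, and they depend on the receptor Flt3, as other dendritic cells do. Siglech is a surface lectin that pairs with an activating adaptor in these cells and is also found on rodent microglia, which is why cells with C1q transcripts and Csf1r were left out.

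Starts of a few of their genes are printed for reference, since several of the genes below were high together in these cells. Each is the 250 bases before the RefSeq start of the gene in assembly GRCr8, written 5′ to 3′ on the strand of the gene, with capitals for a motif match on either strand. The motifs searched were the E-box letters CAGGTG and CAGCTG, which the Tcf4 family can bind, the interferon regulatory factor letters GAAA followed 2 bases on by GAAA, and the composite letters GGAA followed 2 bases on by GAAA. The Siglech window lies at chr1:115729241-115729490 on the plus strand and held none of them, the Bst2 window lies at chr16:18254968-18255217 on the minus strand and held CAGGTG on its other strand and 2 overlapping matches of the GAAA pair, and the Ptcra window lies at chr9:21716272-21716521 on the plus strand and held CAGCTG at 36 and 25 bases before the start.
Siglech: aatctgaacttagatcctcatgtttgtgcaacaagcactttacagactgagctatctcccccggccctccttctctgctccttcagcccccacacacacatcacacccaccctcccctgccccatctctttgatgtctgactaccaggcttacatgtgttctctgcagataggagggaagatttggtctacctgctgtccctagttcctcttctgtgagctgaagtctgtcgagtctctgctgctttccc
Bst2: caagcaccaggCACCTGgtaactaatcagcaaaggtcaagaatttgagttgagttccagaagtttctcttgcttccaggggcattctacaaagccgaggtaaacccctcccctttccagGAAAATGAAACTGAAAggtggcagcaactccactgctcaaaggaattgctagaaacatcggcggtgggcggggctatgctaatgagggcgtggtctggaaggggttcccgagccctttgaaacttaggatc
Ptcra: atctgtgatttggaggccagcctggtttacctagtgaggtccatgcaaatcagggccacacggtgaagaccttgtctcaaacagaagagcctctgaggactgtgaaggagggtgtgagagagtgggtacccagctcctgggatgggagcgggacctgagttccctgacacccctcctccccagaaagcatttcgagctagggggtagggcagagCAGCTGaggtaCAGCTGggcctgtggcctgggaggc
Over all 33465 windows of this length, 15.9% held CAGGTG, 12% CAGCTG, 3.41% the GAAA pair and 2.48% the composite. Of the 16 plasmacytoid genes that were higher in these cells than in other dendritic cells, 9 had windows, 10 in all, of which 2, 3, 1 and 0 held these motifs in the same order. A match describes letters and is no binding site.

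Before the results, 1 library has to be set apart. Sham 1 held 9234 kept cells with a median of 3486.5 UMIs, of which 452 were macrophages or microglia by their C1q and Csf1r transcripts and 114 were B cells. Sham 2 held 2646 kept cells with a median of 9981 UMIs, of which 2140 were macrophages or microglia and 1 was a B cell. No barcode of a Siglech Irf8 cell was shared with such a cell of another library, and no pair of libraries shared more than 40 barcodes among all cells.

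Siglech Irf8 cells were found in every injured library and in 1 of the 2 sham libraries, always as a small share. Sham 1 had 0 of 9234 cells, which allows a share of up to 0.0325% at 3 counts (the Wilson interval reaches 0.0416%), and sham 2 had 7 of 2646 (0.265%, 95% Wilson interval 0.128 to 0.545). The mild libraries had 78 of 7496 (1.04%, 0.835 to 1.30) and 22 of 8453 (0.260%, 0.172 to 0.394), and the moderate libraries 52 of 10860 (0.479%, 0.365 to 0.627) and 42 of 6515 (0.645%, 0.477 to 0.870). The severe libraries had 111 of 3991 (2.78%, 2.32 to 3.34) and 92 of 8101 (1.14%, 0.927 to 1.39). Both severe libraries stood above all others by this rule, but severe 2 lay close to mild 1 and lost its place in 2 of the other settings. It was below mild 1 in cells thinned to 2000 UMIs (1.12 against 1.18%), and below mild 1 (1.24%) and moderate 2 (1.22%) with a mitochondrial limit of 5%. The 2 mild libraries differed from each other by more than their counting intervals, and mild 2 did not stand above sham 2. Intervals and floors cover counting error only.

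**Figure D1:**
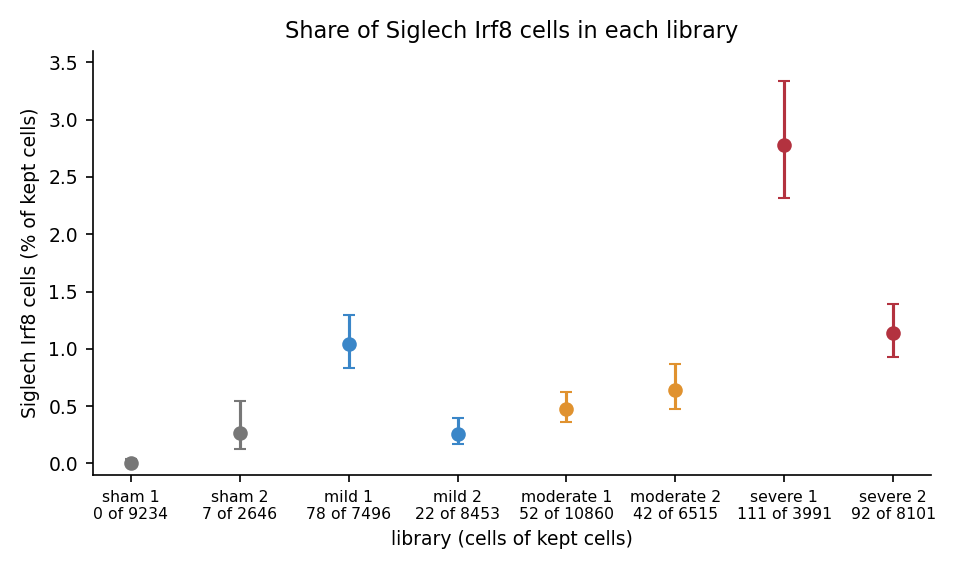
Share of Siglech Irf8 cells among kept cells (%, y axis) in each of the 8 libraries (x axis, with cell counts), as points with 95% Wilson intervals that cover counting error only. Severe 1 (2.78%) and severe 2 (1.14%) stand highest, and sham 1 holds 0 cells.

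The share was 0.132% ± 0.187 (SD, n = 2) in sham, 0.651% ± 0.552 in mild, 0.562% ± 0.117 in moderate and 1.96% ± 1.16 in severe cord. Injured libraries averaged 0.925 percentage points more than sham libraries, which did not pass a two-sided exact permutation test over the 28 ways to assign 8 libraries (p = 0.286). With height of the weight drop, with sham at 0 mm, the share gave Spearman's rho of 0.83 (two-sided exact permutation p = 0.0198, Benjamini-Hochberg adjusted 0.0298 over 3 tests) and Pearson's r of 0.785 (exact permutation p = 0.00794, adjusted 0.0238). This relation rested on the 2 severe libraries, the farthest from the median height: without them rho was 0.598 (exact permutation p = 0.267) and r 0.528 (exact permutation p = 0.311). Among the 6 injured libraries alone, rho was 0.717 (exact permutation p = 0.178) and r 0.713 (exact permutation p = 0.0889).  Without sham 1, rho was 0.771 and did not pass the exact permutation test (p = 0.054), and the same held without severe 1 or severe 2 (rho 0.753 each, exact permutation p = 0.0667). Pearson's r did not pass without severe 1 (0.744, exact permutation p = 0.054).

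The share was also measured with another denominator and at matched depth. As a share of cells with a UMI of Ptprc (CD45), the cells were at 0 and 0.356% (sham), 1.55 and 0.473% (mild), 0.748 and 1.05% (moderate), and 5.99 and 2.13% (severe), and rho with height was 0.878 (exact permutation p = 0.0103). The median total of a Siglech Irf8 cell was 4711.5 UMIs in mild 1, 4077 in mild 2, 3868.5 in moderate 1, 4630.5 in moderate 2, 7745 in severe 1 and 8046 in severe 2. Cells of the severe libraries were therefore deeper, and the limits of the rule are raw UMIs. With every cell of at least 2000 UMIs thinned to 2000 and the limits lowered to match, 369 cells were found, rho was 0.781 (exact permutation p = 0.0349) and r 0.76 (exact permutation p = 0.0115).

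The genes that chose the cells are given as a description. The cells held a median of 7 UMIs of Siglech (3 to 28) and 9 of Irf8 (3 to 34), among a median of 6335 UMIs (1756 to 55551) and 2105 genes. Just inside the limits, 35 cells had exactly 3 UMIs of Siglech and 13 exactly 3 of Irf8, while 40 and 13 cells met all other limits with 2. On the C1q sum, 13 cells stood at 4 or 5 and 2 more at 6 or 7, and 208 of the 404 had none. On Csf1r, 21 cells stood at 1 and 2 more at 2. In all, 431 cells passed on Siglech and Irf8, and the C1q and Csf1r limits removed 27 of them, 10 in mild 1. Siglech summed over the cells of a library came to 1343, 1196, 1274, 1044, 1117 and 1092 CPM (UMIs per 1000000 UMIs of these cells) from mild 1 to severe 2 (always in the order mild 1, mild 2, moderate 1, moderate 2, severe 1, severe 2), and Irf8 to 2020.0, 1920.0, 2418, 2473, 1109 and 1132 CPM. Irf8 was lowest in the severe libraries.

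To place the cells, their UMIs were summed in each injured library and set against 2 other myeloid classes. No test was made against B cells. Flt3 dendritic cells had at least 1 UMI of Flt3, none of Siglech or the B cell gene Cd79b, and the same C1q and Csf1r limits (35, 20, 20, 38, 42 and 65 cells). Macrophages and microglia had a C1q sum of at least 20 and at least 2 UMIs of Csf1r (13986 cells). Both comparisons used edgeR's quasi-likelihood test with the library as a block, Benjamini-Hochberg adjustment and a threshold of 0.05, and folds are log2 ± standard error over the 6 injured libraries. Since gates on cells made these classes, the calls describe how the gated classes differ. Against Flt3 dendritic cells 1906 of 5299 genes differed (36%), 937 higher (17.7%) and 969 lower (18.3%). Against macrophages and microglia 5481 of 10885 differed (50.4%), 2225 higher (20.4%) and 3256 lower (29.9%). Scaling by library size alone, in place of the TMM factors, moved the median log2 difference over all genes from 0.02 to 0.35 against Flt3 dendritic cells and from −0.13 to 0.30 against macrophages and microglia, and the higher share of the calls from 49.2% to 72.7% and from 40.6% to 62.9%.

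Most plasmacytoid identity genes that the rule did not use were also high in the cells. The list was chosen with earlier results of these data known, and Flt3 dendritic cells were gated to hold no Siglech. The counts therefore describe the cells and are no independent support for the name. Of 35 plasmacytoid identity genes, 30 had a row and 20 could be tested against Flt3 dendritic cells: 16 were higher and 1 lower, with a median log2 difference of 3.10, beside 0.02 over all genes tested. Tcf4, the factor that sets plasmacytoid fate, stood at 509.7, 540.2, 471, 561, 314 and 288 CPM in Siglech Irf8 cells. In Flt3 dendritic cells it stood between 9.97 and 69.5 CPM and in macrophages and microglia between 10.1 and 24.8. Every library was above every library of the other classes, and the severe libraries were lowest within the cells. Tcf4 differed by 4.04 ± 0.231 on the log2 scale from Flt3 dendritic cells (edgeR adjusted p = 1.59e-07) and by 4.18 ± 0.133 from macrophages and microglia.

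Other factors of the lineage went with it. Spib, an ETS factor of plasmacytoid and B cells, was at 366, 357, 332, 322, 129 and 194 CPM, against 0 to 9.27 CPM in Flt3 dendritic cells, a log2 difference of 5.51 ± 0.367. Bcl11a, a zinc finger factor the lineage needs, was at 286, 174, 202, 273, 228 and 196 CPM, against 8.82 to 17.4, a difference of 3.66 ± 0.188. Runx2, which governs exit from the bone marrow, was at 189, 212, 231, 400.0, 219.6 and 184 CPM, against 0 to 79.4, a difference of 2.79 ± 0.29. None of these ranges overlapped between the classes. Id2, the inhibitor of Tcf4, ran the other way: it was at 4.72, 0, 19.2, 0, 4.33 and 2.56 CPM, against 235 to 362 CPM in Flt3 dendritic cells, and was lower by a log2 difference of −6.09 ± 0.326 (edgeR adjusted p = 1.07e-07).

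Surface and signalling genes of the list were high as well. Bst2, the antiviral tetherin carried by these cells in rodents, was at 401, 193, 1423, 371, 1198 and 1046 CPM and 4.05 ± 0.175 above Flt3 dendritic cells on the log2 scale. It varied widely among libraries of the cells, with moderate 1 and both severe libraries high, and in macrophages and microglia the same 3 libraries were high (42.5, 22.9, 177, 57.6, 189 and 149 CPM). Cd7, a lymphoid surface protein, was at 595, 530.5, 639, 673, 1032 and 1354 CPM against 78.2 to 159, a difference of 2.53 ± 0.205. Blnk, a linker protein of B cell receptor signalling, was at 1029, 791, 726, 1439, 944 and 891 CPM against 27.7 to 89.6, a difference of 4.04 ± 0.204. Ptcra, the pre-T cell receptor alpha chain and a textbook transcript of this lineage, was at 349, 241, 139, 278, 73.6 and 152 CPM against 0 to 35.3, a difference of 5.54 ± 0.621. Ccr9, a gut and thymus homing receptor, had 133 UMIs in the cells and 1 in Flt3 dendritic cells, a ratio of 118 with an exact counting interval of 20.8 to 4699.

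Some plasmacytoid genes were low or at 0. Ly6d, the lower one of the list, had 2 UMIs, against 196 in Flt3 dendritic cells, a call that DESeq2 did not make (adjusted p = 0.138). Cox6a2 and Gzmb had 0 UMIs, and Dntt averaged 2.41 CPM. Against macrophages and microglia, 18 of 23 plasmacytoid genes tested were higher and 4 lower, the latter Zeb2, Cox6a2, Dntt and Atp1b1, with a median of 2.71 beside −0.13 over all genes. Flt3 itself, which the rule did not use, had a UMI in 200 of the 404 cells (49.5%). It was at 104, 106, 139, 151, 110.4 and 101 CPM, against 0.104 to 0.298 in macrophages and microglia, a log2 difference of 8.47 ± 0.268 (edgeR adjusted p = 6.45e-13). Of the cells with and without a Flt3 UMI, 90.5 and 85.8% had Tcf4, 75.5 and 75.5% Bcl11a, 77.5 and 71.6% Spib, 56.0 and 49.5% Ptcra, 17.5 and 8.33% Cd4, 34.0 and 19.1% Mctp2 and 59.0 and 43.6% Tbxa2r, and in both 0 had Xcr1. These shares were not tested and not matched for depth or library. Of the 200 cells with a Flt3 UMI, 114 came from the severe libraries, whose cells were deeper, as did 203 of all 404.

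Depth was matched by thinning each cell to 1000 UMIs, which kept 397 Siglech Irf8 cells and 220 Flt3 dendritic cells of the injured libraries. Tcf4 was then found in 34.8% of Siglech Irf8 cells (Wilson 30.2 to 39.6), in 1.82% of Flt3 dendritic cells (0.709 to 4.58) and in 8.87% of 1263 oligodendrocytes, drawn at random from 2575 with a limit per library. Unthinned, the first 2 shares were 88.2 and 15.9%, at median totals of 6463 and 9356.5 UMIs, and the 2575 oligodendrocytes had a median of 14306. Spib was found in 20.9% against 0.909 and 0.0792%, and Cd7 in 54.4% against 10.5 and 0%. All 3 shares were lower in both other classes at the same depth, and the part of free RNA in them was not tested. The shares pool the cells of all injured libraries, with 111 and 92 of the 397 from severe 1 and severe 2. The Wilson intervals cover counting error only and not the spread between libraries.

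**Figure D2:**
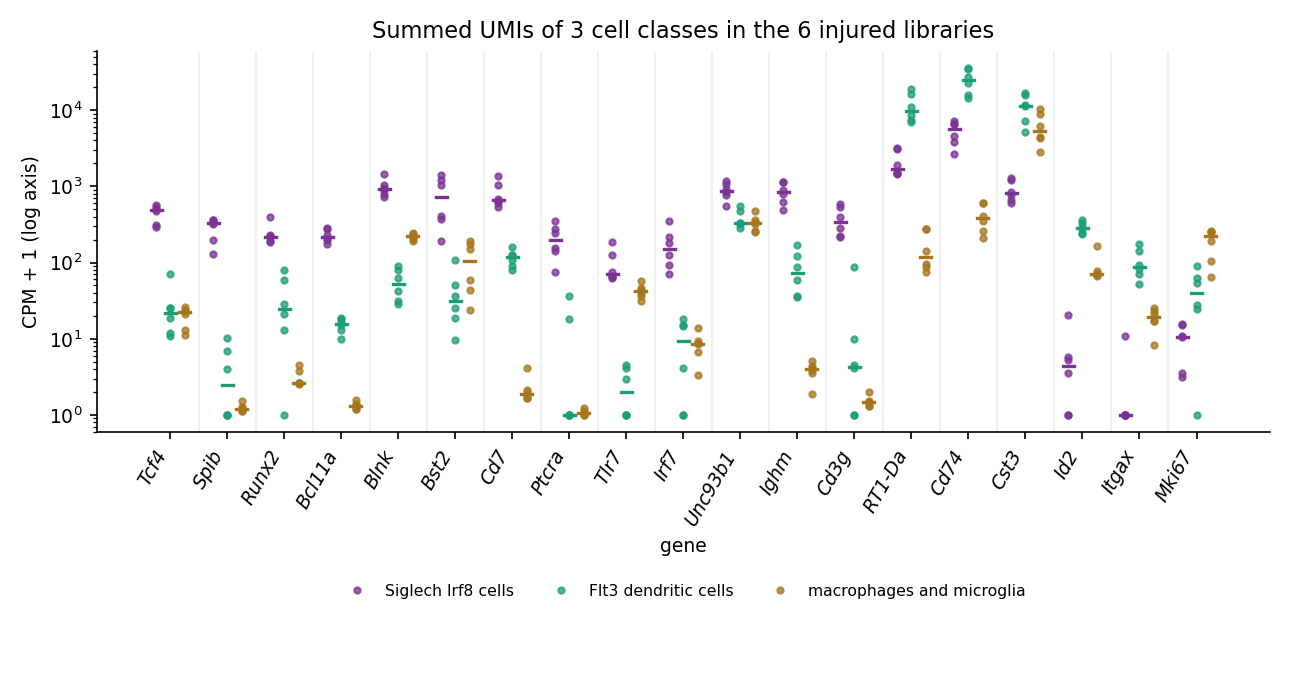
CPM + 1 (y axis, log scale) of 19 genes (x axis) in Siglech Irf8 cells, Flt3 dendritic cells, and macrophages and microglia; each point is 1 of the 6 injured libraries and each bar a median. The factors and surface genes on the left and Ighm and Cd3g stand highest in Siglech Irf8 cells, while the genes RT1-Da, Cd74, Cst3, Id2 and Itgax stand lower in them than in Flt3 dendritic cells.

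Genes of classical dendritic cells were low. Of 24 such genes 14 could be tested against Flt3 dendritic cells, and 0 were higher and 13 lower, with a median log2 difference of −4.45 (−4.39 with Xcr1, at 0 UMIs in the cells, put at the limit of 3 UMIs). Itgax (CD11c) had 2 UMIs in all Siglech Irf8 cells of the injured libraries and 201 in Flt3 dendritic cells. Xcr1, the receptor of cross-presenting cells, was at 0 CPM in every library, against 9.27 to 49.5. Clec9a, which senses dead cells, was at 21.2, 9.65, 0, 29.3, 4.33 and 15.3 CPM, against 43.5 to 161, a log2 difference of −3.15 ± 0.411 (edgeR adjusted p = 8.56e-05). The ranges of Clec9a did not overlap. Clec9a was still above macrophages and microglia (0 to 0.317 CPM), by 6.18 ± 0.685. In that comparison 6 of 19 classical genes were higher and 10 lower.

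Several MHC class II transcripts, RT1-Da and Cd74 among them, lay between the other classes. RT1-Da, a class II alpha chain, was at 1475, 1881, 1442, 1512, 3102 and 3184 CPM in Siglech Irf8 cells. It was at 6995 to 18940.0 CPM in Flt3 dendritic cells and at 73.1 to 279 in macrophages and microglia, so that none of the 3 ranges overlapped, and in all 3 classes the severe libraries were highest. The log2 difference of RT1-Da was −2.74 ± 0.0942 from Flt3 dendritic cells (edgeR adjusted p = 4.78e-09) and 3.40 ± 0.154 from macrophages and microglia. Cd74, the invariant chain, differed by −2.54 ± 0.0864 and 3.27 ± 0.127. Of 10 class II presentation genes tested against Flt3 dendritic cells, 8 were lower and 1 higher, the latter Ifi30, a thiol reductase of the endosome, which was found in all 404 cells and differed by 0.53 ± 0.128 (edgeR adjusted p = 0.00649). The call of Ifi30 was lost without the library block (0.51, edgeR adjusted p = 0.235). Against macrophages and microglia 9 of 12 class II genes were higher, Ifi30 among them, and 3 lower (RT1-DMb, RT1-DOb and Ctss). RT1-DOb, with 1 UMI in the cells, was lower in both comparisons. Its call against macrophages and microglia was lost with DESeq2 (adjusted p = 0.171) and with library size alone (edgeR adjusted p = 0.109). It was also lost whenever 1 library was left out and the gene could be tested (edgeR adjusted p = 0.0779 to 0.162). The co-stimulation list, with Cd40, Cd80, Cd86 and Cd83, had 6 lower and 1 higher (Lag3, an inhibitory receptor) of 7 tested against Flt3 dendritic cells, and 7 lower and 1 higher of 10 against macrophages and microglia. Against Flt3 dendritic cells, Cd83 lost its call with at least 5 UMIs each of Siglech and Irf8 (edgeR adjusted p = 0.0541) and without the library block (0.106).

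The nucleic acid sensing route was present in part. Tlr7, the endosomal receptor for single-stranded RNA, was at 66.1, 125, 188, 73.2, 63.8 and 62.7 CPM. Flt3 dendritic cells held 3 UMIs of it against 203, a ratio of 60.1 (exact counting interval 20.3 to 294). Macrophages and microglia had 30.2 to 55.8 CPM, a log2 difference of 0.65 ± 0.22 (edgeR adjusted p = 0.0215). That call was lost without mild 2 (adjusted p = 0.0525) or moderate 1 (0.0977) and with no filter on low counts (0.057). Tlr9, the receptor for unmethylated DNA, gave 11 UMIs in 10 of 404 cells, and Tlr8 none. Irf7, the factor that amplifies interferon transcription, was at 354, 212, 91.3, 180.5, 123 and 69.0 CPM against 0 to 17.4 in Flt3 dendritic cells, a difference of 3.70 ± 0.463, and 4.0 ± 0.378 above macrophages and microglia. No Irf7 value of the other classes reached the lowest library of the cells.

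Of the 27 sensing genes, 20 could be tested against Flt3 dendritic cells, 10 higher and 5 lower with a median of 0.43. Unc93b1, which carries the receptors to the endosome, was higher by 0.92 ± 0.109, and Pld4, an endosomal nuclease, by 1.46 ± 0.159. The lower ones were Tlr3, Irf5, Pld3, Tmem173 (STING) and Lgmn. Against macrophages and microglia 11 of 25 were higher and 9 lower, with a median of 0.06 beside −0.13 over all genes.

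Interferon transcripts were nearly absent at this depth. Ifnb1 gave 12 UMIs in 6 of 404 cells, 1 in mild 2, 3 in moderate 1, 1 in moderate 2 and 1 in sham 2, and the interferon alpha genes with a row gave none. Ifnb1 could not be tested against Flt3 dendritic cells, and its difference from macrophages and microglia did not pass the threshold (2.94 ± 1.35 on the log2 scale, edgeR adjusted p = 0.0825, higher in 3 of 6 libraries and lower in 2). Of 7 interferon and cytokine genes tested against Flt3 dendritic cells 3 were lower (Il1b, Cxcl10 and Tgfb1), and against macrophages and microglia 7 of 13 were lower and 1 higher (Il12a), with a median of −3.88 that became −0.87 with the genes at 0 UMIs put at their limit. Genes of the response to type I interferon were mostly low beside macrophages and microglia: 19 of 31 tested were lower and 5 higher, with a median of −1.65. Isg15, a ubiquitin-like protein, was at 0 to 23.8 CPM against 10.1 to 42, a difference of −1.65 ± 0.349. The higher ones were Irf7, Bst2, Usp18 and the receptor chains Ifnar1 and Ifnar2, of which Ifnar2 stood at 418, 347, 279, 624, 435 and 302 CPM against 22.3 to 47.2, a difference of 3.32 ± 0.167. Against Flt3 dendritic cells 4 of 9 were higher (Irf7, Bst2, Ifnar1 and Ifnar2) and 0 lower.

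**Figure D3:**
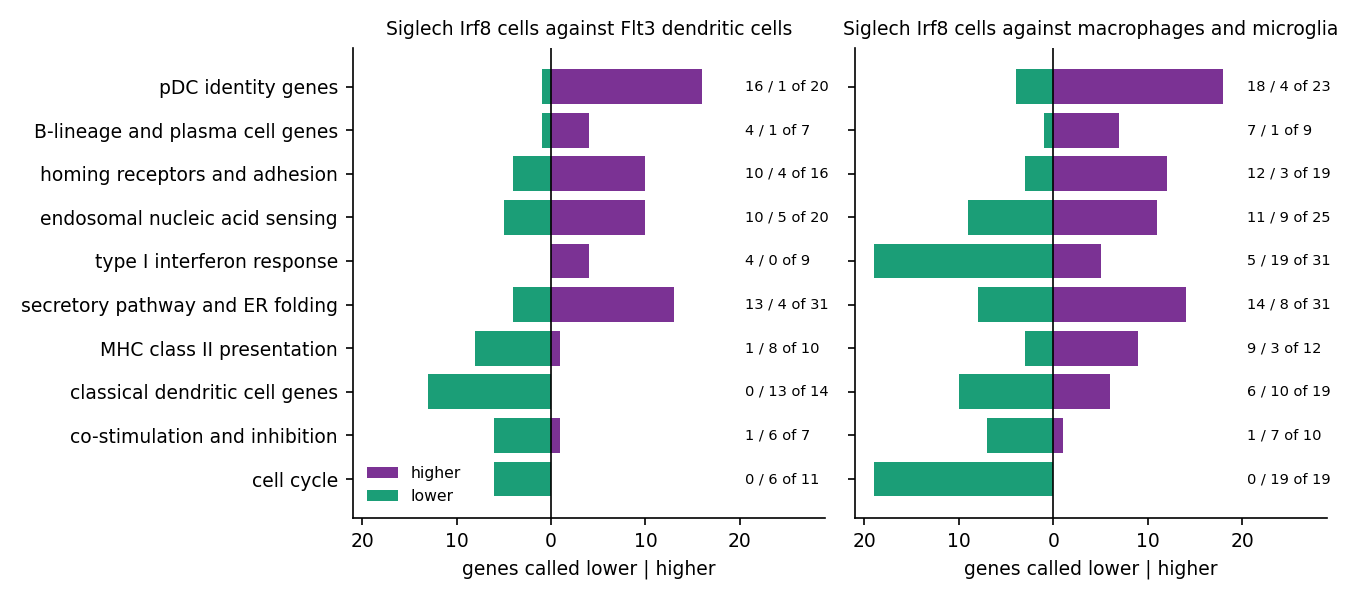
Number of genes of each fixed list called lower (left of 0) or higher (right of 0) in Siglech Irf8 cells at an adjusted p under 0.05, against Flt3 dendritic cells and against macrophages and microglia (x axis, genes; y axis, list). Plasmacytoid identity genes lie to the right in both panels (16 and 18 genes), and cell cycle genes lie only to the left (6 and 19).

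Homing receptors set the cells apart from both classes. Of 16 tested against Flt3 dendritic cells 10 were higher and 4 lower, and of 19 against macrophages and microglia 12 were higher and 3 lower. Itgb7, a mucosal homing integrin chain, was lower than in Flt3 dendritic cells (14.4 to 37.8 against 105 to 235 CPM, −3.08 ± 0.195). Cxcr3, a receptor for interferon-induced chemokines, was among the 10, but its call was lost without mild 1 (edgeR adjusted p = 0.0596), mild 2 (0.0536), moderate 1 (0.108), moderate 2 (0.0782) or severe 2 (0.196) and with DESeq2 (0.134). S1pr4, a sphingosine phosphate receptor of leukocytes also among the 10, lost its call without each library other than severe 1 (edgeR adjusted p = 0.0508 to 0.0806), with at least 5 UMIs each of Siglech and Irf8 (0.0963) and against cells with at least 2 UMIs of Flt3 (0.241).

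Secretory genes were mixed, and cycling genes were called lower or not at all. Of 31 secretory pathway and folding genes 13 were higher and 4 lower against Flt3 dendritic cells, and 14 and 8 against macrophages and microglia. Xbp1, the factor that builds the secretory apparatus, was at 54.3, 116, 43.3, 73.2, 31.4 and 38.4 CPM, against 0 to 15.9 in Flt3 dendritic cells, a difference of 2.27 ± 0.516 (edgeR adjusted p = 0.00449), and Ern1, the kinase that splices it, differed by 2.70 ± 0.256. The ranges of Xbp1 did not overlap, but its call was lost against cells with at least 2 UMIs of Flt3, which left 3 libraries (1.14, edgeR adjusted p = 0.277). Calr, a folding chaperone, was among the lower ones in both comparisons. Mki67, the proliferation antigen, was at 2.16 to 14.4 CPM, against 0 to 88.2 in Flt3 dendritic cells and 63.6 to 259 in macrophages and microglia (−2.46 ± 0.625 and −4.93 ± 0.231). Cell cycle genes were lower in 6 of 11 and in 19 of 19 tested, and 0 were higher. Of the 6, Tubb5 lost its call without moderate 1 (edgeR adjusted p = 0.0788), moderate 2 (0.088), severe 1 (0.0606) or severe 2 (0.0842) and with library size alone (0.117), and Ube2c without moderate 2 (0.0868) or severe 1 (0.0722) and with DESeq2 (0.108). At least 3 of 7 cycling genes were seen in 5 of 397 Siglech Irf8 cells (1.26%), in 14 of 220 Flt3 dendritic cells (6.36%) and in 5258 of 13986 macrophages and microglia (37.6%), which were deeper. Summed over the list, cell cycle genes came to 1265 and 1283 CPM in the mild libraries of Siglech Irf8 cells, above Flt3 dendritic cells (813.1 and 973.3). The sums were below Flt3 dendritic cells in the moderate (793.2 and 853.8 against 2320 and 2107) and severe libraries (670.8 and 514.1 against 1634 and 1467).

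The cells also held lymphoid transcripts. Ighm, the constant chain of immunoglobulin M, was at 899, 1148, 1144, 790.3, 489 and 630.4 CPM, in 390 of 404 cells. Flt3 dendritic cells had 34.7 to 168 CPM, with no overlap, and the difference was 3.24 ± 0.162 (edgeR adjusted p = 7.18e-08). Cd3g, a chain of the T cell receptor complex, was at 536, 579, 399, 219.5, 284 and 219 CPM in 295 of 404 cells, against 0 to 87.7, a difference of 4.14 ± 0.667, while its partner Cd3e gave 2 UMIs in 2 cells. Ms4a1 (CD20) gave 2 UMIs in 1 cell and Pax5 none. Thinned to 1000 UMIs, Ighm was found in 51.1% of the cells against 6.82% of Flt3 dendritic cells and 0.871% of oligodendrocytes, and Cd3g in 27.5% against 0.455 and 0.0792%. Of the B-lineage genes 4 of 7 were higher (Jchain, Ighm, Cd24 and Fcmr) and 1 lower (Cd72) against Flt3 dendritic cells. Against macrophages and microglia 7 of 9 were higher and 1 lower. Cells with a UMI of Cd79b were left out of the Flt3 dendritic cells but not of the Siglech Irf8 cells. The part of this gate in the B-lineage differences from Flt3 dendritic cells was not tested. Of T and NK cell genes 1 was higher (Cd3g) and 3 lower (Cd2, Cd8a and Klrb1a) of 4, and 3 higher and 4 lower of 7.

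Among genes outside the lists, the 10 with the highest log2 difference from Flt3 dendritic cells at 50 CPM or more were AABR07034739.1, AABR07060872.1, Kbtbd11, Mctp2, Cd209, Gapt, Pygm, Tm6sf2, Tbxa2r and, from the lists, Jchain. AABR07034739.1, known only by a clone name, gave 4346 UMIs in the cells and 3 in Flt3 dendritic cells, and stood at 3622, 3800.0, 1115, 302, 1384 and 1079 CPM. Gapt, an adaptor that binds Grb2, was at 929.7, 646, 572, 346, 189 and 395 CPM against 0 to 17.6, a difference of 7.14 ± 0.344. Kbtbd11 was at 26.0 to 112 CPM in the cells and had 0 UMIs in Flt3 dendritic cells. Xcl1, a chemokine for Xcr1 cells, was at 632, 366, 697, 864, 60.6 and 372 CPM in 157 of 404 cells, against 0 to 25.9, a difference of 5.14 ± 0.762, and 10.72 ± 0.232 above macrophages and microglia. Severe 1 was low for it.

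The 10 lowest were Plet1, Klrc3, AC120486.10, Cd226, RT1-DOb, Slpi, LOC691670, Ctla2a, Itgax and Slamf7. Plet1 and Klrc3 had 0 UMIs in the cells, against 97.0 to 263 and 35.3 to 136 CPM in Flt3 dendritic cells. Slpi, a protease inhibitor, was at 9.65 to 108 CPM against 185 to 19230.0, a difference of −7.40 ± 0.676. Against macrophages and microglia the highest were Ccr9, LOC103694852, Ptcra, Xcl1, AABR07034739.1, Sla2, Zp1, Paqr5, AABR07060872.1 and Cd24, and the lowest included Cyp2d1, Gdf15, Ccl12, Ltc4s, Gpr84, Cxcl10, Ch25h, Tmem176a and Fcgr3a.

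Markers of other cells were measured over whole lists. The 15 macrophage and monocyte genes with a row summed to 3372, 3154, 8754, 7381, 848.2 and 8045 CPM in the cells. Apoe was the most abundant of them, at 732, 1476, 5937, 3098, 242 and 5398 CPM, against 13160.0 to 41470.0 in macrophages and microglia and 225 to 8185 in Flt3 dendritic cells. In severe 2, 1 cell held 3726 of the 4221 Apoe UMIs, and in moderate 1, 1 cell held 599 of the 1235, while in moderate 2 the 635 UMIs were spread over all 42 cells with at most 45 in 1 cell. Severe 1 was lowest for Apoe in both dendritic classes and highest in macrophages and microglia. Of these genes 0 were higher and 7 lower of 13 against Flt3 dendritic cells, and 14 of 15 lower against macrophages and microglia. Microglia genes summed to 221.9 to 351.3 CPM, with Tmem119 at 3 UMIs and Gpr34 at 0. Of 5 tested against Flt3 dendritic cells 2 were higher, P2ry13 among them, and 2 lower, and of 11 against macrophages and microglia 9 were lower. Oligodendrocyte and astrocyte genes summed to 3480, 1852, 923, 941.6, 942.3 and 975.7 CPM, with Cnp the most abundant, Aqp4 at 0, and Cnp higher in both comparisons. Neutrophil genes summed to 17.9 to 292.6 CPM. The part of other cells' RNA in the results was not tested. Of the 404 cells, 19 (4.70%) were among the 7.7% of cells with the highest doublet score of their library.

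Of 22 genes of the Flt3 axis and dendritic transcription factors, 2 were higher (Id3 and Runx3) and 5 lower of 14 tested against Flt3 dendritic cells, and 6 higher and 7 lower of 21 against macrophages and microglia. Of the 8 immune-related autophagy genes of the study, which it chose on these samples, 0 were higher and 2 lower (Hspa8 and Vegfa) of 6 against Flt3 dendritic cells, and 1 was higher (Cxcr4) and 5 lower of 8 against macrophages and microglia. The call of Hspa8 against Flt3 dendritic cells was lost without moderate 2 (edgeR adjusted p = 0.0848), severe 1 (0.0818) or severe 2 (0.0696) and with library size alone (−0.20, 0.231). Vascular and fibroblast genes gave 0 calls of 1 and 4 lower of 6. Over all genes tested, 36% were called against Flt3 dendritic cells (18.3% lower) and 50.4% against macrophages and microglia (29.9% lower). Whether the lists of this paragraph differ from those shares was not tested.

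Between grades of injury the summed counts of the cells were compared in the 6 injured libraries, 2 a grade, in 1 edgeR quasi-likelihood fit over 4596 genes. Sham could not be fitted, with 0 and 7 cells. Moderate against mild gave 17 genes (0.37%), 13 higher (0.283%) and 4 lower (0.087%). Severe against mild gave 184 (4%), 80 higher (1.74%) and 104 lower (2.26%), and severe against moderate 83 (1.81%), 32 higher (0.696%) and 51 lower (1.11%). These counts moved when 1 library was left out. Leaving out a library of a compared grade left that grade with 1 library. A fall there cannot be told apart from the loss of a replicate, and the same holds for single genes below. Moderate against mild fell to 1 without mild 1 and 7 without mild 2 and rose to 30 without moderate 2, 54 without moderate 1, 70 without severe 1 and 68 without severe 2. Severe against mild fell to 36 without mild 1 and 81 without mild 2 and rose to 317 without moderate 2, 287 without moderate 1 and 242 without severe 2. Severe against moderate fell to 45 without mild 1. With library size alone, the higher share of the calls moved from 43.5% to 31.9% for severe against mild and from 38.6% to 28% for severe against moderate, and the median log2 difference over all genes from 0.01 to −0.17 and from −0.01 to −0.17. Cells of the severe libraries were deeper (above), with mitochondrial shares of 3.14 and 2.77% against 4.26 to 4.81% in the others.

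Of 19 plasmacytoid identity genes tested between grades, 1 was called: Cd7 was higher in severe than in mild libraries by 1.23 ± 0.297 on the log2 scale (edgeR adjusted p = 0.0343). Its 2 severe values (1032 and 1354 CPM) were above all 4 others (530.5 to 673), and its call was lost without mild 1 (adjusted p = 0.373), mild 2 (0.287) or severe 2 (0.154), without cells of high doublet score (0.0846), with library size alone (0.0607) and with the replicate block (0.0695). Tcf4 differed by −0.65 ± 0.291 between severe and mild (edgeR adjusted p = 0.291) and Bst2 by 2.01 ± 0.54 (adjusted p = 0.0594). Over the 19 genes the median log2 difference between severe and mild was −0.645, beside 0.008 over all genes tested. With 2 libraries a grade, a missed threshold does not show that a gene was level. Sensing, interferon response, secretory, B-lineage, T and NK cell, microglia, macrophage, co-stimulation and classical dendritic lists gave 0 calls in any of the 3 contrasts. RT1-Da was higher in severe than in moderate libraries by 1.23 ± 0.279 (edgeR adjusted p = 0.0427), lost without each library (0.0578 to 0.127) other than moderate 1, with library size alone (0.0522), the replicate block (0.095), at least 5 UMIs each of Siglech and Irf8 (0.225) or only the 2 grades fitted (0.141), with moderate libraries at 1442 and 1512 CPM and severe at 3102 and 3184.

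Cd69 and Ccl4 were lower after severe injury. Cd69, an early activation antigen that holds lymphocytes in tissue, was at 149 and 569 CPM in mild, 399 and 34.1 in moderate, and 2.16 and 6.39 in severe libraries, with a UMI in 23, 8, 21, 5, 2 and 4 cells. Both severe values were below all others. Cd69 differed by −6.08 ± 1.08 between severe and mild (edgeR adjusted p = 0.00624, at most 0.0395 without any 1 library) and by −5.53 ± 1.08 between severe and moderate (adjusted p = 0.0197, or 0.291 without moderate 1, 0.0751 with at least 5 UMIs each of Siglech and Irf8 and 0.0528 with only the 2 grades fitted). In macrophages and microglia it ran from 8.00 to 32.2 CPM, with severe libraries at 18.3 and 32.2. Ccl4, a chemokine that attracts leukocytes, was at 646 and 916 CPM in mild, 279 and 454 in moderate, and 60.6 and 156 in severe libraries, in 151 of 404 cells. Its 3 grades did not overlap, and severe was below mild by −2.69 ± 0.438 (edgeR adjusted p = 0.00353, at most 0.0395 without any 1 library). Ccl4 was not called between moderate and mild or between severe and moderate. In macrophages and microglia Ccl4 was at 2363, 1669, 1724, 7839, 3165 and 7440.0 CPM.

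Calls of 4 other genes were less stable. Ccr6, a receptor for epithelial chemokine, was at 123, 366, 38.5, 117, 18.4 and 55.0 CPM, and severe was below mild by −2.46 ± 0.614 (edgeR adjusted p = 0.0402), a call lost without mild 1 (0.0579), mild 2 (0.314) or severe 1 (0.121). Mycl, a Myc family factor of dendritic cells, was at 127, 135, 115, 68.3, 30.3 and 32.0 CPM and lower by −1.90 ± 0.397 (adjusted p = 0.0158), lost without mild 1 (0.256), mild 2 (0.0868) or severe 1 (0.0665). Fxyd7, an ion pump regulator, was at 269, 627, 4.81, 68.3, 87.6 and 90.8 CPM, with both mild libraries above all others, and was lower in moderate (−3.56 ± 0.653, adjusted p = 0.0347) and severe libraries (−2.11 ± 0.529, adjusted p = 0.0411). The first call was lost without mild 1 (0.117) or mild 2 (0.177), with DESeq2 (0.0504) and with only the 2 grades fitted (0.0905), the second without mild 1 (0.095), mild 2 (0.335) or severe 1 (0.0781) and with DESeq2 (0.479). S1pr1, a receptor for exit from tissue, was at 7.08, 0, 52.9, 78.1, 6.49 and 1.28 CPM and lower in severe than in moderate libraries by −3.78 ± 0.755 (adjusted p = 0.0198), lost without each library (0.0582 to 0.225) other than mild 2 and with at least 5 UMIs each of Siglech and Irf8 (0.393).

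LOC100911104, a gene with no given name, separated mild from the other grades. It was at 2548 and 2132 CPM in mild, 48.1 and 151 in moderate, and 30.3 and 15.3 in severe libraries. It had a UMI in 78 of 78, 18 of 22, 9 of 52, 15 of 42, 11 of 111 and 5 of 92 cells, so that in the mild libraries it was spread over nearly all cells. The difference was −4.56 ± 0.469 between moderate and mild (edgeR adjusted p = 0.00116) and −6.49 ± 0.502 between severe and mild (adjusted p = 1.86e-05), and neither call was lost without any 1 library. In macrophages and microglia LOC100911104 ran from 2.94 to 26.8 CPM and in Flt3 dendritic cells from 203 to 691, in both with mild 1 highest.

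**Figure D4:**
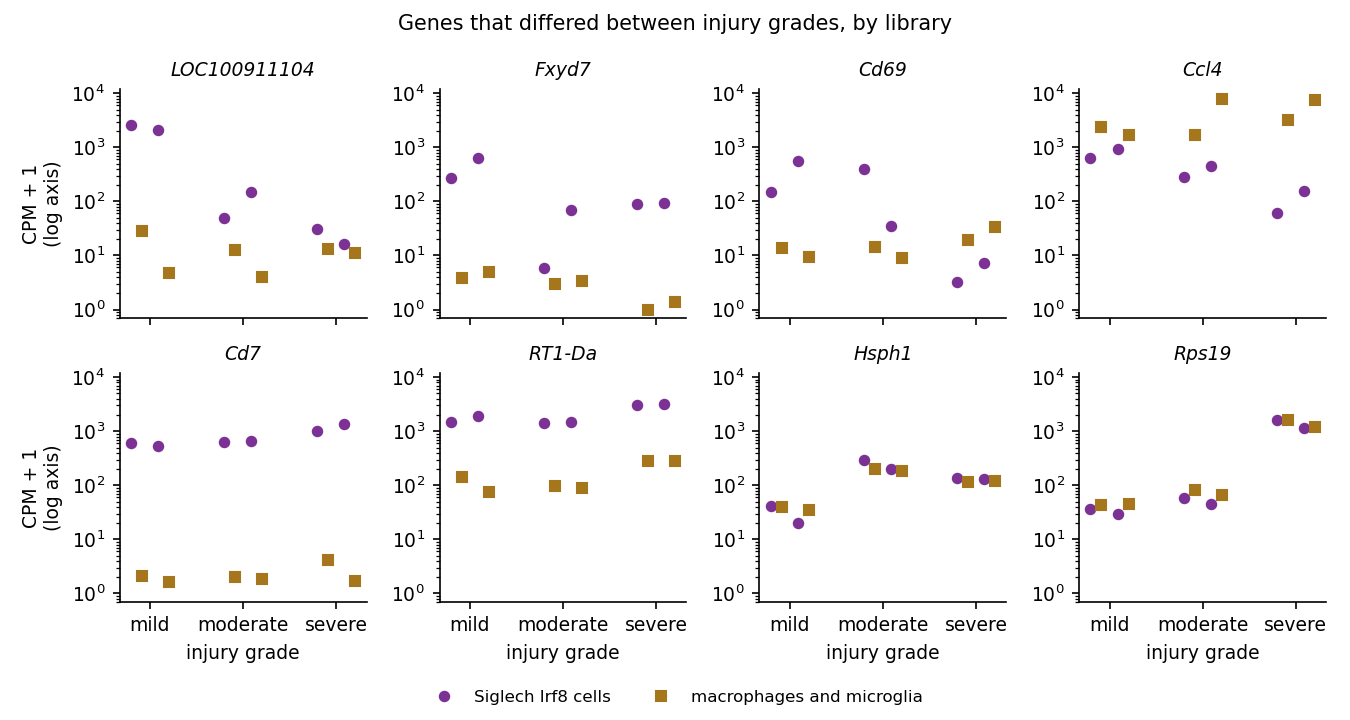
CPM + 1 (y axes, log scale) of single genes by grade of injury (x axes) in Siglech Irf8 cells and in macrophages and microglia; each point is 1 library. LOC100911104 stands at 2132 or more in both mild libraries of Siglech Irf8 cells and at 151 or less in their other libraries, and Rps19 takes like values in both classes.

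Other calls between grades were shared with other cells of the same libraries. Rps19, a ribosomal protein gene with near-identical copies whose count is uncertain, was at 35.4, 28.9, 57.7, 43.9, 1625 and 1170.0 CPM in the cells and at 43.2, 43.5, 82.7, 65.9, 1586 and 1218 in macrophages and microglia. It differed by 5.53 ± 0.416 between severe and mild (edgeR adjusted p = 1.86e-05), and Rps6 by 4.53 ± 0.452 (adjusted p = 0.000142). LOC100360791 was at 240.4 and 517 CPM in the moderate libraries and at 0 to 6.39 in the others, with 128 and 364 CPM against 1.28 to 5.46 in macrophages and microglia. Its call between moderate and mild was lost without mild 1 (edgeR adjusted p = 0.175). Hsph1, a heat shock protein, was at 40.1, 19.3, 293, 200.0, 135 and 132 CPM, with both mild libraries lowest there and in macrophages and microglia (39.3 and 34.2 against 113 to 200.3), and was higher in moderate (2.87 ± 0.443, edgeR adjusted p = 0.0143) and severe than in mild libraries (2.11 ± 0.433, adjusted p = 0.0147). Both calls of Hsph1 were lost without mild 1 (0.362 and 0.211) or mild 2 (0.131 and 0.124). What sets these libraries apart in all classes cannot be told apart from the grade.

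UMIs of several called genes were concentrated in few cells. Of Mag, a myelin gene, 44 of 64 UMIs came from 1 cell, and of Apod, an apolipoprotein of glia, 267 of 471. Vgf, a neuronal secreted protein, had 129 of its 144 UMIs in 3 cells, and Stmn1, a tubulin regulator, 124 of 226. Hspa1b, a heat shock protein, had 279 of 551 in 3 cells, but a UMI in 12 and 11 cells of the moderate and 13 and 14 cells of the severe libraries, against 1 and 0 in the mild ones. Its call between moderate and mild was lost without mild 1 (edgeR adjusted p = 0.51) or mild 2 (0.0706), and that between severe and mild without mild 1 (0.0579). Between moderate and mild, Vgf lost its call without mild 1 (0.117) or mild 2 (0.0706). Apod lost its call there without mild 1 (0.53), mild 2 (0.0546) or moderate 2 (0.127), without cells of high doublet score (0.194) and with only the 2 grades fitted (0.0594). Of the lower cell cycle genes between severe and mild, Stmn1 lost its call without mild 1 (adjusted p = 0.148), and Tubb5 was no longer lower without cells of high doublet score (−0.10, edgeR adjusted p = 0.947) and lost its call without mild 1 (0.141), mild 2 (0.167), severe 1 (0.0707) or severe 2 (0.051). Cd69, with 44 of 221 UMIs in its 3 richest cells, and LOC100911104, with 101 of 1383, were spread more widely.

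**Figure D5:**
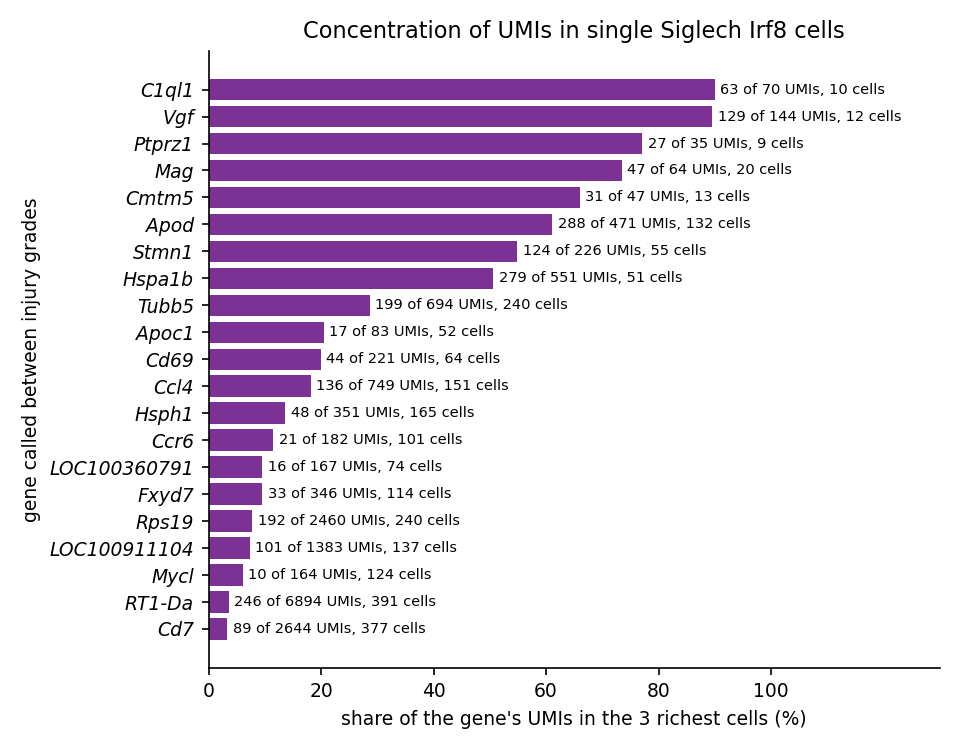
Share of a gene's UMIs in its 3 richest Siglech Irf8 cells (x axis, %) for genes called between grades of injury (y axis). Vgf stands at 89.6%, while LOC100911104 stands at 7.30%.

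Whether the grade difference in Siglech Irf8 cells was unlike that in macrophages and microglia of the same libraries was tested for all 4596 genes with limma on the paired log2 differences. It was called for 0, 1 and 0 genes in the 3 contrasts, with 368, 525 and 393 at an unadjusted p under 0.05. Severe against mild, the difference of differences was −6.51 for Cd69 (limma adjusted p = 0.126), −4.35 for Ccl4 (0.137), −6.76 for LOC100911104 (0.144), 0.09 for Rps19 (0.932), 0.26 for Hsph1 (0.826) and 0.21 for Cd7 (0.958). None of these 6 passed, and the falls of Cd69, Ccl4 and LOC100911104 were thus not shown to be particular to these cells.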

How the data were processed

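The authors deposited raw UMI counts of 8 libraries, 1 matrix each with 32623 genes, made with Cell Ranger (5.0.1 in the file headers, 6.0.1 in the study's methods, which also name Seurat 4.0), on build Rnor_6.0 per the labels. Strand use and multi-mapped reads are not stated. Cells were kept and chosen as the opening says. Members and gene lists were chosen with earlier results of these data known. Counts were summed per library and class, classes with fewer than 20 cells in a library were left out, and sums were fitted with edgeR 4.0.16 (quasi-likelihood, TMM, filterByExpr, Benjamini-Hochberg over all genes tested, R 4.3.3). Genes of a rule were not counted. A planned minimum of 2 UMIs of Flt3 left too few libraries, so the fallback of 1 was used. DESeq2 1.42.0, limma 3.58.1 (added after seeing the data), Scrublet in scanpy 1.11.5, scipy 1.17.1, numpy 2.4.6, pandas 2.3.3 and Python 3.11.15 served alternatives and tests, and matplotlib 3.10.9 the figures. Named were genes of the lists and the 10 largest rises and falls (5 between grades) at an adjusted p under 0.05, at least 50 CPM in the higher class or grade, one sign in every library (between grades, no overlap) and a symbol. The fits were tested on simulated data. For severe against mild, 18% of genes changed 2-fold and 61% changed 4-fold were called with the right sign. Against Flt3 dendritic cells these shares were 70 and 94%. False calls were 0.0244 and 0.243% in the same order. Sequences came from RefSeq, assembly GRCr8. Listed genes without a row were not analysed here. Columns of no sample numbered 0. Results of a few genes are not reported here.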

Additional observations from a re-analysis of the deposited data

Results flagged for a closer look

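AABR07071294.1, a gene known only by a clone name and singled out after its values were seen, was the 1 gene of 4596 whose severe against mild difference in Siglech Irf8 cells differed from that in macrophages and microglia of the same libraries (difference of differences −4.78 on the log2 scale, limma adjusted p = 0.0298 over all genes). It was at 0 CPM in the mild and moderate libraries of Siglech Irf8 cells and at 33.5 and 37.1 CPM in the severe ones, with 60 UMIs in 54 cells. In macrophages and microglia it was at 0.0512 and 0.0413 CPM in the mild and 21.5 and 21.3 CPM in the severe libraries, so that both classes were higher after severe injury. Because the cells held 0 UMIs of it in the mild libraries, the size of the difference of differences depends on the prior count, and its direction cannot be read from these levels. The cause was not tested.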

How the results depend on the processing

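The share of Siglech Irf8 cells kept its direction under every setting tried, with injured libraries above sham libraries by 0.58 to 1.08 percentage points when 1 library was left out. With height of the weight drop, rho was 0.683 with a mitochondrial limit of 5% (exact permutation p = 0.0825), 0.598 without both severe libraries and 0.717 with injured libraries only, and r was 0.528 and 0.713 in the last 2. Leaving out 1 library gave rho of 0.753 (without severe 1 or severe 2) to 0.918 and r of 0.744 (without severe 1) to 0.868. Against Flt3 dendritic cells 1906 genes differed, 931 without the library block, 1167 with at least 2 UMIs of Flt3 (3 libraries), 1589 with DESeq2 and 1398 to 1847 when 1 library was left out. Against macrophages and microglia 5481 differed, and 4630 to 5240 with 1 library left out. Moderate against mild gave 17 genes, 34 with DESeq2, 120 without the filter on low counts, 7 with only the 2 grades fitted and 1 to 70 with 1 library left out (1 without mild 1, 70 without severe 1). Severe against mild gave 184, 471 without the filter, 116 without cells of high doublet score, 289 with only the 2 grades and 36 to 317 with 1 library left out (36 without mild 1, 317 without moderate 2). Severe against moderate gave 83, 237 without the filter, 25 with at least 5 UMIs each of Siglech and Irf8 (the only contrast that could be fitted then), 34 with only the 2 grades and 45 to 120 with 1 library left out (45 without mild 1, 120 without severe 2). The cause of these moves was not tested. Deviations of same-numbered libraries from the mean of their grade had correlations of −0.03, 0.01 and −0.12 between the grades. With 2 libraries a grade, each pair of grades gives a single correlation and its negative. The check therefore cannot tell whether the numbers pair the libraries. The replicate block gave 25, 163 and 87 genes. No named gene that was called in a main fit turned its direction in a setting that tested it. Named genes that were not called were left out of this count. The thinned rule, the injured libraries alone and the limma test were chosen after seeing the data. The injured libraries held 22 to 111 Siglech Irf8 cells each, which limits what the comparisons between grades can show.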
